A study of Mus musculus with 4 samples.

Results

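The transcriptome of female mouse embryonic stem cells (mESCs) carrying a hairpin against Smarca4, Smarca4.4, was compared at day 6 of differentiation with that of cells carrying a non-silencing control hairpin, Nons. The comparison covers autosomal genes, on chromosomes 1 to 19, whose mean over 4 libraries was at least 0 on the log2 CPM scale (reads scaled to the total of the library), and this left 12751 of 24483 autosomal genes and of 25965 genes listed in all. The question is which gene families and functions differ when Smarca4 is depleted, and how these differences relate to the change from day 0 to day 6. All cells were of a female mESC line from an F1 cross of the FVB and CAST strains, expanded in 2i medium and moved to DME HiHi medium to differentiate. Hairpins were delivered with a virus on day 2, puromycin was added on day 3, and the cells were harvested on day 6. A library from day 0, whose title names no hairpin and whose genotype field reads nonsilencing control, and a library from day 6 with another Smarca4 hairpin, Smarca4.6, serve as reference points. The genotype field of all 3 day 6 libraries, Nons included, reads Smarcc knockdown, so the groups follow the titles. Each group has 1 library, so the spread between replicates is unknown for every difference below, and no p-value is given.

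Smarca4, also called Brg1, is an ATPase that drives BAF, a complex that slides and evicts nucleosomes and so opens enhancers and promoters to transcription factors. In mESCs it sits with a set of subunits named esBAF, which works beside the pluripotency factors and opposes or assists Polycomb at different genes. During differentiation, subunit exchange and new partners direct the complex to lineage genes, among them those of smooth and cardiac muscle.

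The guide strands of the 3 hairpins are shown because they define what was depleted and which other messages share the seed. Capitals mark bases 2 to 8 of each guide, the seed, written 5′ to 3′.
Smarca4.4: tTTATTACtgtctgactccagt
Smarca4.6: tTGCATAAtagtgttcatcagt
Nons: cTTACTCTcgcccaagcgagag
The reverse complement of the whole Smarca4.4 guide, actggagtcagacaGTAATAAa with the seed match in capitals, lies in the 3′ UTR of Smarca4, in exon 34 of 34, at chr9:21703327-21703348 on the plus strand of GRCm38 (the assembly also named mm10). This site is in 3 of the 4 Smarca4 transcripts of GENCODE M21 that were searched. The Smarca4.6 site, actgatgaacactaTTATGCAa, is in the coding part of exon 22, at chr9:21670504-21670525, and in 4 of 4 transcripts. Among all annotated transcripts, both full sites were found in Smarca4 and in no other gene, and the Nons guide had a full site in 0 genes.

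The libraries held 18599398 reads at day 0 and between 36495574 and 47143740 at day 6, as recovered from the deposited values. Intervals below are exact (Clopper-Pearson) 95% intervals of the reads of the libraries compared. They allow for counting error alone, and they are too narrow even for that where a molecule gave several reads. The day 6 cells had left the naive state: the summed level of 19 naive pluripotency genes was 6948 CPM at day 0, 611.9 with Nons, 599.4 with Smarca4.4 and 560.0 with Smarca4.6. Trophectoderm and simple epithelial genes (24 listed) summed to 759.4 CPM at day 0, 4017 with Nons, 4031 with Smarca4.4 and 3565 with Smarca4.6. Markers of blood and endothelium (21 found) summed to 117.5 CPM with Nons and 124.1 with Smarca4.4, with Ptprc, Emcn, Hbb-bh1 and Hbb-y at 0 reads in both. Fibroblast genes (12 found) summed to 160.4 CPM with Nons and 130.0 with Smarca4.4, with Islr at 0 reads in both. In bulk RNA, fewer cells of a type and less RNA per cell cannot be told apart.

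The targeted gene, Smarca4, was at 7.93 at day 0, 7.84 with Nons, 7.04 with Smarca4.4 and 7.44 with Smarca4.6 on the log2 CPM scale. Smarca4.4 therefore retained 57.3% of the Nons level, and it was the lower of the 2 hairpins. The difference was -0.80 (-0.85 to -0.76) on the log2 scale.

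Most autosomal genes differed little between Smarca4.4 and Nons. The median difference was 0.03, and 93.9% of genes lay within 1.5-fold. At least 1.5-fold higher in Smarca4.4 were 468 genes, or 3.67% of those compared, and 308, or 2.42%, were at least 1.5-fold lower. Below, rose and fell mean past 1.5-fold. At 2-fold the counts were 101 (0.792%) and 41 (0.322%). Low genes supplied most of these: among 3504 genes with a mean of 0 to 3, 369 rose and 223 fell, whereas among 9247 genes with a mean of at least 3 the counts were 99 and 85. For Smarca4.6, which was compared with the same Nons library, 703 genes (5.51%) were at least 1.5-fold higher and 492 (3.86%) lower. By chromosome, the median of Smarca4.4 minus Nons ranged from -0.005 on chromosomes 7 and 15 to 0.110 on chromosome 13.

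**Figure D1:**
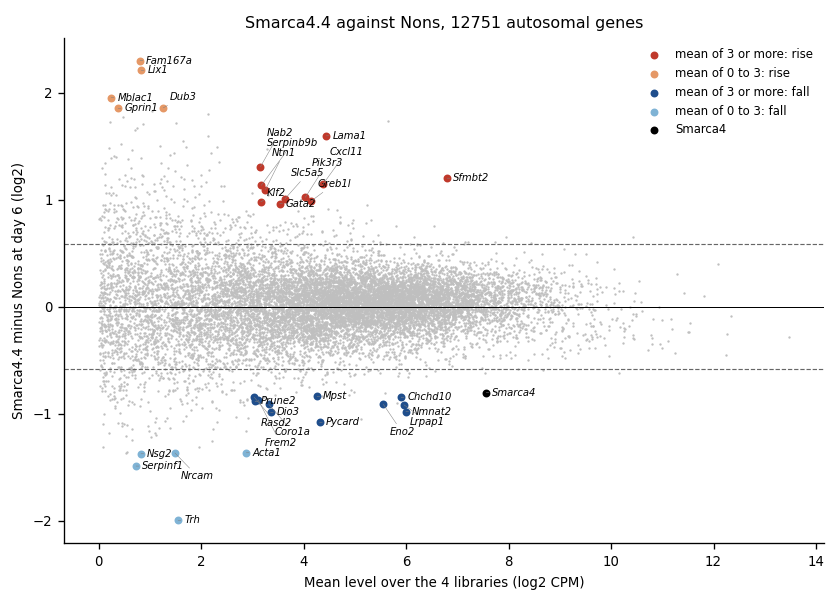
Difference between Smarca4.4 and Nons at day 6 (log2) against the mean level over the 4 libraries (log2 CPM), 1 point per autosomal gene; coloured points are Smarca4 and genes among the largest rises and falls in each range of level, and dashed lines mark 1.5-fold. The spread widens toward low levels, and Smarca4, at -0.80, is 1 of 10 genes with a mean of at least 6 that fell.

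Among genes with a mean of at least 3, the rises named here were led by a basement membrane gene. Lama1, the laminin alpha chain of early basement membranes, stood at 6.28 on the log2 CPM scale at day 0 and at 3.03 with Nons, against 4.63 with Smarca4.4 and 3.82 with Smarca4.6. Its rise of 3.03-fold (log2 difference 1.60, 1.43 to 1.77) left it between the Nons and the day 0 level. Nab2, a corepressor of EGR factors, was at 4.44 at day 0, 1.73 with Nons, 3.04 with Smarca4.4 and 3.40 with Smarca4.6 (1.31, 1.03 to 1.59). Of its exon bases, 42.2% also lie in exons of genes on the other strand, and the strand setting of the counting was not stated, so reads of these genes could not be told apart.

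Sfmbt2, an imprinted Polycomb-related gene needed in trophoblast, had 6.93 at day 0, 6.09 with Nons, 7.29 with Smarca4.4 and 6.89 with Smarca4.6, the highest of the 4 being Smarca4.4. With 3109 reads in Nons and 7374 in Smarca4.4, its difference of 1.20 (1.14 to 1.26) had one of the narrower intervals. The trophoblast and blood factor Gata2 was at 3.70, 2.88, 3.85 and 3.70 in the same order (0.97, 0.77 to 1.16), so that all but Nons were close together. Slc5a5, the sodium iodide symporter, is a gene of the differentiated cells: 8 reads were counted at day 0 (-1.22), and the day 6 levels were 4.72 with Nons, 5.73 with Smarca4.4 and 5.29 with Smarca4.6 (1.01, 0.91 to 1.11). Ntn1, the guidance cue netrin-1, showed the other pattern, with 5.83 at day 0, 1.73 with Nons, 2.83 with Smarca4.4 and 2.62 with Smarca4.6 (1.10, 0.82 to 1.38). The other rises of this group were Cxcl11 (1.15, 1.04 to 1.26), a chemokine with 41.7% of its exon bases under a gene of the other strand, Serpinb9b (1.14, 0.93 to 1.34), a granzyme-type protease inhibitor, the PI3K regulatory subunit gene Pik3r3 (1.02, 0.88 to 1.17), Greb1l (0.99, 0.85 to 1.13) and Klf2, which is described with the naive genes. Of the exon bases of Pik3r3, 24.3% are shared with another gene model on the same strand.

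Falls at this level were smaller than the rise of Lama1, 2.11-fold at most. Nmnat2, which makes NAD in axons, had 6.00 at day 0, 6.73 with Nons, 5.75 with Smarca4.4 and 5.49 with Smarca4.6, both hairpins lying below both other libraries. The difference was -0.98 (-1.05 to -0.91). Eno2, neuronal enolase, followed the same order with 5.63, 6.26, 5.35 and 4.97 (-0.91, -0.99 to -0.83).

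Pycard, the inflammasome adaptor ASC, changed little from day 0 (4.92) to Nons (4.74) but was at 3.67 with Smarca4.4 and 3.90 with Smarca4.6 (-1.08, -1.22 to -0.94). Coro1a, an actin regulator best known in leukocytes, rose in Nons from -0.63 (12 reads) to 5.01, and was at 4.10 with Smarca4.4 and 4.80 with Smarca4.6 (-0.91, -1.04 to -0.79). Here Smarca4.6 lay nearer to Nons than to Smarca4.4. The imprinted deiodinase gene Dio3 was at 1.64, 4.49, 3.50 and 3.78 in day 0, Nons, Smarca4.4 and Smarca4.6 (-0.99, -1.14 to -0.83). The remaining falls were Lrpap1 (-0.92, -0.99 to -0.84), a chaperone of LDL-family receptors, Prune2 (-0.88, -1.09 to -0.68), the matrix gene Frem2 (-0.87, -1.12 to -0.62), the mitochondrial Chchd10 (-0.85, -0.93 to -0.76), Rasd2 (-0.85, -1.05 to -0.64) and the sulfurtransferase gene Mpst (-0.84, -0.97 to -0.70).

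At mean levels of 0 to 3 the differences were larger and mostly rested on fewer reads. The mean includes day 0, so a gene silent there can be in this range with many reads at day 6. Acta1, 1 of the 5 largest falls, had 0 reads at day 0, 4219 with Nons and 1689 with Smarca4.4. It is described with the contractile genes. Trh, the precursor of thyrotropin-releasing hormone, was at 2.09 at day 0, 2.16 with Nons, 0.17 with Smarca4.4 and 1.76 with Smarca4.6. Smarca4.4 stood apart from the other 3 libraries, with 53 reads against 205 with Nons (-1.99, -2.46 to -1.55). Nrcam, a neuronal adhesion molecule, also had its low value in Smarca4.4 among the day 6 libraries (2.27 with Nons, 0.90 with Smarca4.4, 2.13 with Smarca4.6; -1.36). Nsg2, a neuronal vesicle gene, was at 0.94 with Nons, -0.43 with Smarca4.4 and -0.02 with Smarca4.6 (-1.37, -1.98 to -0.79), and Serpinf1 was at 1.10, -0.39 and -0.38 (-1.49, -2.08 to -0.92). Among the rises, Dub3, a deubiquitinase gene with near-identical copies among which reads could have been split, had 85 reads in Nons and 318 with Smarca4.4 (1.86, 1.51 to 2.22). Fam167a, Lix1, Mblac1 and Gprin1 were the other 4 of the 5 largest rises in this range, at 2.30, 2.21, 1.96 and 1.86. Gprin1 passed the level filter only through its value in Smarca4.4.

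**Figure D2:**
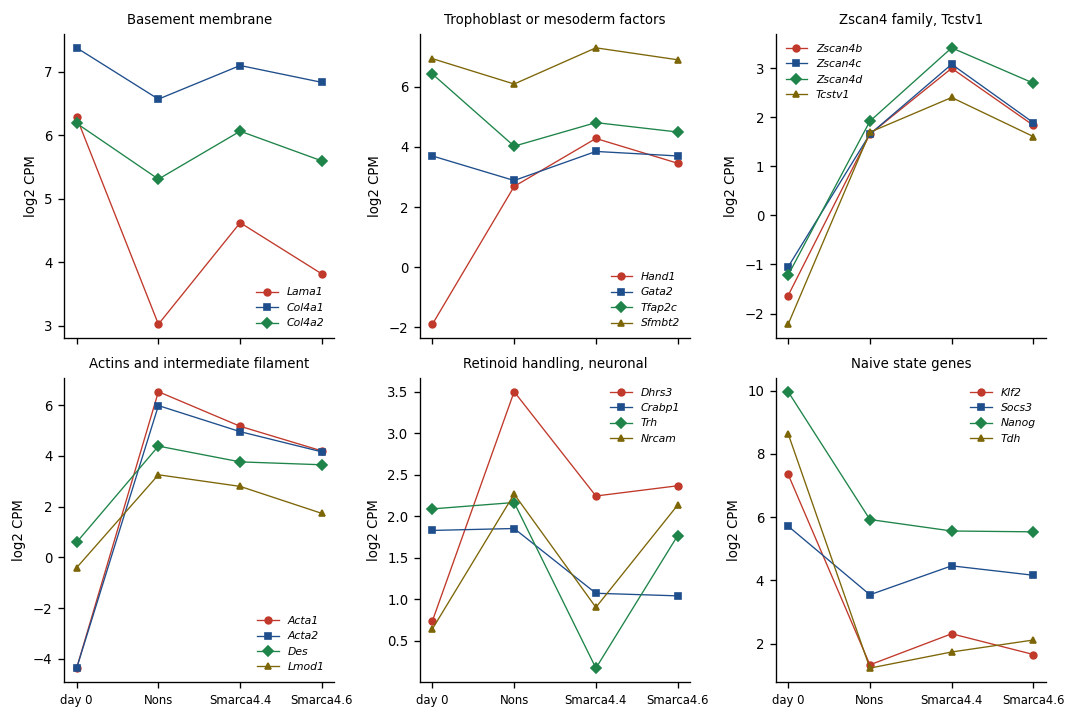
Level (log2 CPM) of 23 genes in the 4 libraries, with lines joining the values of 1 gene; each panel has its own vertical scale. The Zscan4 genes are highest in Smarca4.4, the actin genes are highest in Nons, and Trh and Nrcam are lowest of the day 6 libraries in Smarca4.4.

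Genes were then placed by their change with time. So that the class did not share a library with the difference, it was taken from Smarca4.6 at day 6 against day 0, with 2-fold as the limit. Smarca4.6 depletes the same gene, however. A gene that both hairpins shift can thus leave or enter a class, which can draw the class medians together. The 2470 genes higher at day 6 had a median difference between Smarca4.4 and Nons of -0.02, the 1340 genes lower at day 6 had 0.06, and the 8941 genes that stayed within 2-fold had 0.04. The quartiles of the first class were -0.23 and 0.21 and those of the second -0.19 and 0.29, so the classes overlapped almost wholly. Among genes higher at day 6, 166 (6.72%) rose and 119 (4.82%) fell with Smarca4.4. Of genes lower at day 6, 126 (9.40%) rose and 75 (5.60%) fell. Of the genes that stayed within 2-fold, 176 (1.97%) rose and 114 (1.28%) fell. The classes also differed in level, with medians of 2.93, 3.17 and 5.01 in the same order on the log2 CPM scale. When the class was taken from Nons against day 0, which shares Nons with the difference, the medians moved apart to -0.08 and 0.15. For scale, the median change with time itself was 2.08 for genes higher and -1.63 for genes lower at day 6.

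**Figure D3:**
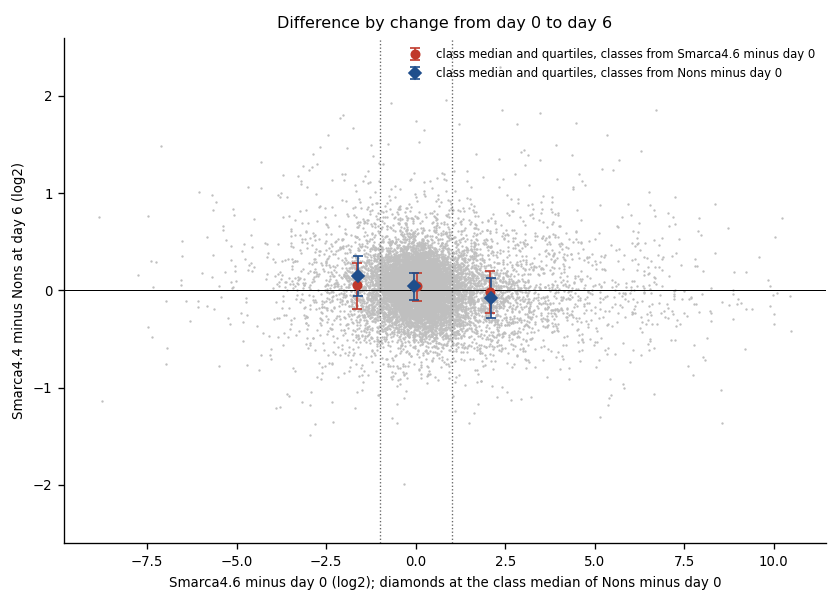
Difference between Smarca4.4 and Nons (log2) against the change from day 0 to Smarca4.6 at day 6 (log2), 1 point per gene; large symbols are class medians with quartiles, circles for classes from Smarca4.6 and diamonds for classes from Nons, and dotted lines mark 2-fold. All 6 class medians lie between -0.08 and 0.15.

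Gene families were examined with 44 lists, which held 1225 of the genes compared. In 11 lists no member reached 1.5-fold. The level filter is a mean that includes Smarca4.4, so low genes that rose passed it more readily than low genes that fell. Rises with a mean level close to the filter include Trf (0.12), Pdgfra (0.12), Tgfb3 (0.04), Fosl1 (0.21) and Gprin1 (0.38), and each counts in a list below. Without Smarca4.4 the mean of each is below 0, so each passed only through the library where it is high. Their rises are therefore no support for a lean of their lists. Counts below are to be read against the 3.67% of all genes that rose and the 2.42% that fell. List medians are to be read against the autosomal median of 0.03. The shares varied with level: 10.53% rose and 6.36% fell at a mean of 0 to 3. At 3 to 6 they were 1.41% and 1.23%, and at 6 and over 0.41% and 0.32%. Lists of low genes, such as the 2-cell-like (median level 1.21), sarcomere (1.47), mesoderm (2.13) and Wnt (2.56) lists, belong beside the first pair. Genes that change with time had the higher shares given above.

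Chromatin regulators were mostly level, with exceptions in PRC1, the Polycomb complex that ubiquitinates histone H2A. None of 26 BAF subunits other than Smarca4 reached 1.5-fold (median 0.003), the extremes being Bcl11a at -0.56 (-0.83 to -0.29) and the neural subunit Dpf1 at 0.38 (0.06 to 0.70). Of 22 PRC1 genes 3 rose and 0 fell (median 0.16). Bmi1, a ring finger subunit, was at 5.39 at day 0, 3.31 with Nons, 4.16 with Smarca4.4 and 3.70 with Smarca4.6 (0.85, 0.69 to 1.02), and so lay between its Nons and day 0 levels with either hairpin. Cbx8 also passed the limit at 0.59, but its interval (-0.04 to 1.24) spanned 0. In PRC2, the methyltransferase complex, 0 of 10 genes passed (median 0.05). Among 13 genes of DNA methylation 1 rose, the dioxygenase Tet3, from 4.08 with Nons to 4.92 with Smarca4.4 and 4.81 with Smarca4.6 (0.84, 0.72 to 0.97). None of the CHD, ISWI and INO80 remodellers reached the limit (median 0.10).

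The naive pluripotency genes, which are switched off on leaving 2i, had a median difference of 0.004 over 19 genes, of which 3 rose and 0 fell. Klf2 was at 7.35 at day 0, 1.33 with Nons, 2.31 with Smarca4.4 and 1.66 with Smarca4.6 (0.98, 0.65 to 1.32). Socs3, the feedback inhibitor of LIF signalling, was at 5.71, 3.54, 4.46 and 4.16 in that order (0.91, 0.76 to 1.07), and Prdm14 was at 0.76 with an interval that spanned 0 (-0.17 to 1.75). Each was below its day 0 level in every day 6 library. Nanog went the other way without reaching 1.5-fold, at 5.92 with Nons and 5.56 with Smarca4.4 (-0.36, -0.44 to -0.28). In the list of 18 core and primed genes 0 passed (median -0.06), with Sox2 at -0.44 (-0.53 to -0.34) and Otx2 at -0.42 (-0.48 to -0.36).

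Genes of the 2-cell-like state, a rare state of mESC cultures that resembles the early embryo, had the highest list median, 1.34 over 7 genes. Of these 6 rose, 0 fell, and the remaining one, Zfp352, was at 0.41. Zscan4d, a marker of the state, was at -1.22 at day 0, 1.92 with Nons, 3.41 with Smarca4.4 and 2.69 with Smarca4.6 (1.49, 1.24 to 1.75). Zscan4c was at -1.05, 1.65, 3.08 and 1.89 in the same order (1.42, 1.15 to 1.71), and Tcstv1 was at -2.22, 1.69, 2.40 and 1.60 (0.71, 0.41 to 1.01). In each case Smarca4.4 was the highest library and day 0 the lowest. With Smarca4.6 the list median was 0.18. The Zscan4 genes are near-identical copies, so they are not independent readings and reads could have been split among them.

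Germline genes that DNA methylation silences in somatic cells were mostly higher by less than the limit. Of 22 genes 21 were above 0 and 1, Sycp3 at -0.12, was below, with a median of 0.31, while 1 rose and 0 fell. Sycp2, of the synaptonemal complex, rose from 1.63 with Nons to 2.42 with Smarca4.4 (0.79, 0.49 to 1.10) and was at 2.10 with Smarca4.6. Piwil2, a piRNA-binding protein gene, was at 4.88 at day 0, 3.60 with Nons, 4.15 with Smarca4.4 and 3.19 with Smarca4.6 (0.55, 0.40 to 0.71). For Hormad1, of meiotic chromosome axes, the values were 7.52, 3.15, 3.63 and 2.72 (0.47, 0.29 to 0.66). For both, Smarca4.6 lay below Nons, and its list median was -0.38.

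Of 303 numbered Zfp genes, a name shared by many zinc finger repressors of transposable elements, 23 (7.59%) rose and 2 (0.660%) fell, with 221 above 0 and a median of 0.13. The largest rise was that of Zfp9, at 0.74 at day 0, -0.31 with Nons, 0.83 with Smarca4.4 and 0.57 with Smarca4.6 (1.14, 0.57 to 1.74). Zfp62, which had the most reads of those that rose, was at 5.10, 4.25, 5.02 and 5.08 in the same order (0.77, 0.65 to 0.89), both hairpins thus lying near day 0. The falls were Zfp580 (-0.88, -1.22 to -0.56) and Zfp273 (-0.66, -1.07 to -0.26). These genes have many related copies.

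Of 29 imprinted genes 5 rose and 2 fell (median 0.17). Peg10, a retrotransposon-derived gene essential for the placenta, had the most reads of the 5 and was at 7.65 at day 0, 11.06 with Nons, 11.71 with Smarca4.4 and 11.30 with Smarca4.6 (0.65, 0.64 to 0.66). Cdkn1c, a growth inhibitor, was at 1.64, 4.05, 4.94 and 4.88 (0.89, 0.77 to 1.02), and Phlda2, another, at 0.62 (0.40 to 0.85). Of the exon bases of Cdkn1c, 30.7% lie under a gene of the other strand. The falls were Dio3 and Nnat, the latter at 4.31 with Nons, 3.69 with Smarca4.4 and 4.33 with Smarca4.6 (-0.62, -0.77 to -0.47). Peg12 (1.80) and Magel2 (0.61) completed the rises.

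Lineage genes are taken next, from endoderm to muscle. Of 11 endoderm genes that passed the level filter, out of 27, 4 rose and 0 fell (median 0.43). Beside Lama1 these were the basement membrane collagen Col4a2 (6.19 at day 0, 5.31 with Nons, 6.07 with Smarca4.4 and 5.60 with Smarca4.6; 0.76, 0.67 to 0.84), the visceral endoderm receptor Cubn (-1.63, 0.69, 1.99 and 1.43; 1.29, 0.90 to 1.70) and Trf, transferrin (0.92, 0.31 to 1.55), of whose exon bases 63.5% are shared with another gene model on the same strand. Col4a1, which pairs with Col4a2 in type IV collagen, was at 0.53 (0.47 to 0.59), and the laminin partners of Lama1 were at 0.04 (Lamc1) and -0.05 (Lamb1). Summed over all 27 genes the endoderm level was 890.1 CPM at day 0, 950.8 with Nons, 1029 with Smarca4.4 and 883.2 with Smarca4.6. The sum was thus above Nons with Smarca4.4 and below it with Smarca4.6. Of 23 integrin and laminin genes 3 rose, Lama1 among them with the integrins Itga7 (1.01, 0.62 to 1.41) and Itgb8 (0.64, 0.49 to 0.80), and Itgb7 fell (-0.85, -1.57 to -0.15). Of 21 collagen genes Col4a2 rose and Col5a2, a fibrillar collagen absent at day 0 but for 1 read, fell from 3.80 with Nons to 3.02 with Smarca4.4 (-0.78, -0.96 to -0.59; median 0.11).

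Of 17 mesenchymal genes 6 rose and 1 fell (median 0.08). Zeb1, a repressor of epithelial genes, was at 5.13 at day 0, -0.19 with Nons, 1.13 with Smarca4.4 and 0.81 with Smarca4.6 (1.32, 0.78 to 1.89). Snai1, a factor of the same program, was at 0.31, 0.29, 1.22 and 1.22 (0.93, 0.45 to 1.42). Other rises were Tgfb3 (0.81, 0.34 to 1.28), Tgfbi (0.70, 0.03 to 1.39) and Pdgfrb (0.70, 0.28 to 1.13), while the matrix protease Mmp2 fell (-0.60, -0.71 to -0.48).

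Of 11 mesoderm factors 2 rose and 2 fell (median 0.04). Hand1, a factor of cardiac mesoderm and of trophoblast, was at -1.90 at day 0, 2.68 with Nons, 4.28 with Smarca4.4 and 3.45 with Smarca4.6 (1.59, 1.40 to 1.79), so it exceeded the induction seen in Nons. The cardiac factor Tbx20 was at 0.03, 3.81, 3.03 and 2.73 (-0.79, -0.97 to -0.60), short of it. Pdgfra was at 0.61 (0.04 to 1.19), and T was at -0.63 with an interval (-1.81 to 0.51) that spanned 0. The level of T was -1.35 with Nons, -1.97 with Smarca4.4 and 1.32 with Smarca4.6, the hairpins thus lying on either side of Nons. Of 20 trophectoderm and epithelial genes 2 rose and 1 fell (median 0.001), namely Gata2, Tfap2c (6.42, 4.02, 4.80 and 4.49; 0.78, 0.65 to 0.91) and Tfap2a (-0.78, -1.28 to -0.29). Keratin genes did not reach the limit in either direction (6 passed the filter, median -0.12), with Krt7 at 0.50 (0.42 to 0.57) and Krt19 at -0.55 (-0.59 to -0.52). Of 16 neural genes 3 rose, Gprin1, Elavl4 (0.81, 0.43 to 1.20) and Pax6 (0.62, 0.42 to 0.82), and Syn2 fell (-1.31, -1.89 to -0.76). Of 39 Hox genes 3 passed the level filter and 2 of these rose, among them Hoxd13, whose interval spanned 0 (0.59, -0.02 to 1.22). Of the markers of other cell types, 1 of the 7 blood and endothelial genes past the level filter rose, Cd34 (0.69, 0.43 to 0.95), and 0 fell, with Pecam1 at -0.35 (-0.54 to -0.15). Of the 7 fibroblast genes past the filter 2 rose, Cd248 (1.12, 0.66 to 1.59) and Mfap5 (0.70, 0.31 to 1.10), and 0 fell, with 3 below 0, among them Fstl1 at -0.48 (-0.55 to -0.42).

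Contractile genes, which serum response factor (SRF) controls in muscle and in spread cells, leaned downward. Of 26 smooth muscle and SRF genes, 22 of them at least 2-fold higher in Nons than at day 0 (19.8% of all genes were), 18 were below 0 (median -0.14), 2 fell and 1 rose. Acta2, smooth muscle actin, had 0 reads at day 0 and was at 5.98 with Nons, 4.95 with Smarca4.4 and 4.15 with Smarca4.6 (-1.03, -1.12 to -0.94). Des, the intermediate filament desmin, was at 0.59, 4.38, 3.76 and 3.65 (-0.62, -0.77 to -0.48), and Synpo2 rose (0.62, 0.30 to 0.95). Of 12 sarcomere genes 2 rose and 2 fell (median -0.09). Acta1, skeletal actin, was at 6.53 with Nons, 5.16 with Smarca4.4 and 4.19 with Smarca4.6 (-1.36, -1.45 to -1.28). Tnnc2 was at 2.11, 1.40 and 0.92 (-0.72, -1.05 to -0.39), but 74.0% of its exon bases lie under a gene of the other strand. Ttn, titin, rose (0.83, 0.64 to 1.01), and so did the atrial light chain gene Myl4 (0.72, 0.39 to 1.05).

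Among signalling pathways the retinoic acid list had the lowest median, -0.36 over 11 genes, with 9 below 0, 2 that fell and 0 that rose. Dhrs3, which reduces retinaldehyde and is itself induced by retinoic acid, was at 0.74 at day 0, 3.50 with Nons, 2.24 with Smarca4.4 and 2.36 with Smarca4.6 (-1.26, -1.49 to -1.03). The binding protein Crabp1 was at 1.83, 1.85, 1.07 and 1.04 (-0.78, -1.15 to -0.41). The receptors Rarg (-0.45, -0.55 to -0.36) and Rara (-0.41, -0.61 to -0.21) and the degrading enzyme Cyp26a1 (-0.39) were lower by less than 1.5-fold, and Rxra was at 0.28. With Smarca4.6 the list median was 0.02.

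Of 18 immediate early genes 3 rose and 0 fell (median 0.08). Myc was at 2.14 at day 0, 4.94 with Nons, 5.73 with Smarca4.4 and 6.02 with Smarca4.6 (0.79, 0.69 to 0.88). The AP-1 genes Fosl1 (0.97, 0.51 to 1.44; 57.2% of its exon bases under a gene of the other strand) and Fos (0.76, 0.42 to 1.10) were the others. In the FGF list (20 genes, median -0.06) Fgf3 (0.65) and the feedback inhibitor Spry2 (0.63, 0.51 to 0.75) rose, and Fgf8 fell (-0.80, -1.36 to -0.25). Fgf8 was at 0.73 with Nons, -0.07 with Smarca4.4 and 2.38 with Smarca4.6, the 2 hairpins thus lying on either side of Nons. Wnt3 did likewise in the Wnt list (19 genes, median -0.06), at 1.40, 0.76 and 1.89 (-0.64, -1.07 to -0.22), while Wnt6 (0.98, 0.40 to 1.57) and Wnt8a (0.61, 0.21 to 1.02) rose. Of 18 Nodal and BMP genes Inhbb rose (1.24, 0.58 to 1.93) and Bmp7 (-0.59, -0.95 to -0.25) and the activin antagonist Fst (-0.61) fell. YAP and TEAD targets stayed within 1.5-fold with Smarca4.4 (17 genes, median 0.08), and their median with Smarca4.6 was -0.24. Of 29 interferon genes 1 rose, Ifitm1 (0.64, 0.53 to 0.75; list median 0.04).

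**Figure D4:**
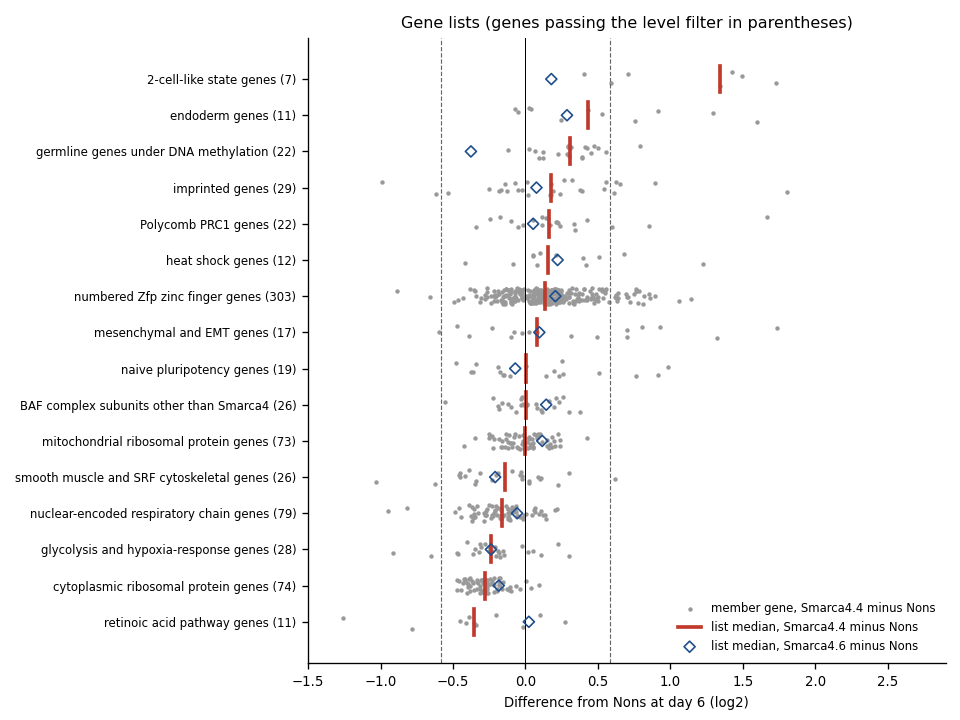
Differences from Nons (log2) for 16 gene lists, 1 grey point per member for Smarca4.4, with the list median as a red bar and the median for Smarca4.6 as a blue diamond; dashed lines mark 1.5-fold. The 2-cell-like list has the highest median at 1.34, and the ribosomal protein genes form a narrow band around -0.28.

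Genes of the cytoplasmic ribosome lay mostly on one side of 0 by small amounts. None of 74 reached 1.5-fold, and 71 lay below 0, with a median of -0.28 and a range from -0.48 to 0.10. Rps2 was at 8.24 at day 0, 9.67 with Nons, 9.20 with Smarca4.4 and 9.27 with Smarca4.6 (-0.48, -0.50 to -0.45), and Rpl12 at 9.12, 10.49, 10.03 and 10.18 (-0.46, -0.47 to -0.44). Both were above day 0 in every day 6 library. The list median was 0.65 for Nons minus day 0 and -0.18 for Smarca4.6 minus Nons. Ribosomal protein genes have many processed copies, so how multiply mapping reads were treated bears on their levels.

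Nuclear-encoded respiratory chain genes had a median of -0.16, with 67 of 79 below 0, 2 that fell and 0 that rose. The falls were Cox7a1 (-0.95, -1.25 to -0.64) and Cox4i2 (-0.82, -1.13 to -0.51), isoforms of muscle and of hypoxic tissue. Cox4nb, which the name pattern also took in, codes for no respiratory subunit, and it was at -0.49 (-0.54 to -0.43). By contrast, the 73 genes of the mitochondrial ribosome had a median of -0.001 and 0 passed. Glycolysis and hypoxia-response genes had a median of -0.24, with 23 of 28 below 0 and 2 that fell, Eno2 and the lactate dehydrogenase gene Ldhb (6.34 with Nons, 5.69 with Smarca4.4, 6.09 with Smarca4.6; -0.65, -0.73 to -0.58). Within the pathway Gapdh was at -0.32, Aldoa at -0.35 and Pkm at -0.25, while the glucose transporter Slc2a1 was at 0.05. The median with Smarca4.6 was also -0.24.

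Medians were also ranked across 73 families defined by the letters of the gene symbol, each with at least 15 genes compared. The lowest were those of Rpl (-0.27), Rps (-0.26) and Cox (-0.23), and the next was Arhgef at -0.10. At the other end were Col (0.151), Rad (0.148), Usp (0.143), Ddx (0.139) and Zfp (0.136), so the lean of the Zfp genes was not particular to them. Other metabolic and stress lists moved less. Of 27 genes of cholesterol and fatty acid synthesis 1 rose, Hsd17b7 (0.68, 0.52 to 0.84), and 1 fell (median 0.08). Of 22 glutathione and metallothionein genes Srxn1 rose (0.59, 0.49 to 0.69) and Mt1 fell (-0.65, -0.72 to -0.57; median -0.15). Of 12 heat shock genes 2 rose, the near-identical Hspa1a (1.23, 0.77 to 1.70) and Hspa1b (0.68, 0.39 to 0.98), with a median of 0.16. In 31 cell cycle genes the CDK4 and CDK6 inhibitor Cdkn2c rose (1.13, 0.57 to 1.71) and Cdk6 itself fell (5.20 with Nons, 4.49 with Smarca4.4, 4.47 with Smarca4.6; -0.71, -0.82 to -0.59), with a median of 0.06. Of 41 proteasome genes only the testis-type subunit Psma8 rose (0.76, 0.38 to 1.14; median 0.07). None of 24 p53 targets (median -0.04) or 18 unfolded protein response genes (median 0.05) reached the limit. Of 68 replication-dependent histone genes 6 passed the level filter, and 2 of these fell, Hist1h3c and Hist3h2ba.

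The differences varied with transcript length and GC content, which were examined after the list results were seen. From the quintile of genes with the shortest transcripts to that with the longest, the median of Smarca4.4 minus Nons went from -0.06 to 0.09, and from the lowest to the highest quintile of GC content it went from 0.13 to -0.06. The same quintiles for Smarca4.6 gave 0.02 to 0.07 and 0.10 to 0.01. Ribosomal protein genes, with a median transcript of 1114 bases, were therefore set beside 318 other genes in their range of length, GC content and level. Those genes had a median of -0.02, against -0.28 for the list. The range was wide, 491 to 3076 bases in length, so the other genes need not share the list's lengths within it. For the respiratory chain the other genes had a median of 0.004 against -0.16, for glycolysis 0.02 against -0.24, and for the Zfp genes 0.04 against 0.13. The part of library or RNA quality in these trends was not tested.

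**Figure D5:**
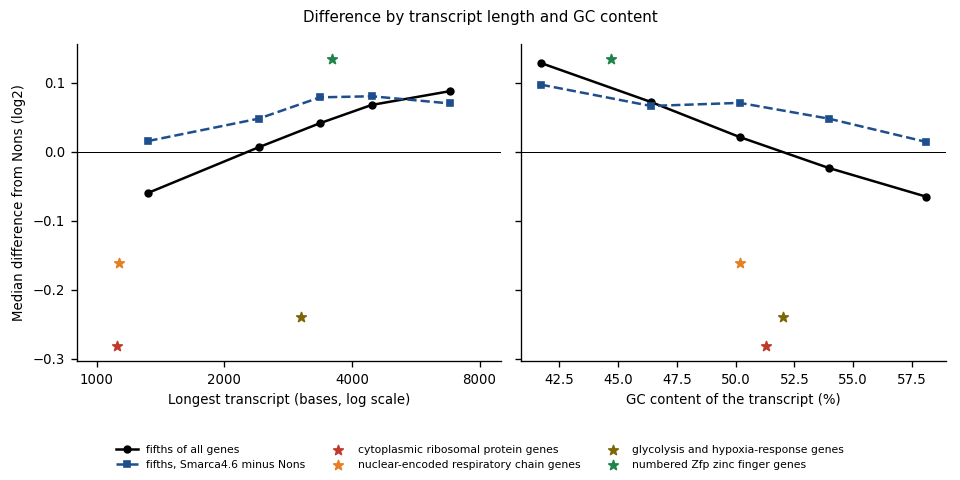
Median difference from Nons (log2) by quintiles of transcript length (left, log scale) and GC content (right), as black circles for Smarca4.4 and blue squares for Smarca4.6; stars are 4 gene lists at their own median length, GC content and Smarca4.4 difference. The black line goes from -0.06 to 0.09 with length, and the ribosomal protein, respiratory chain and glycolysis stars lie below it.

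Messages that hold the seed match of the Smarca4.4 guide, the letters GTAATAA in an annotated 3′ UTR on the sense strand, were not lower in Smarca4.4. The 1305 such genes, 12.01% of those with an annotated 3′ UTR, had a median difference of 0.08, against 0.03 for the 9561 genes without the match, and 1.69% of them were at least 1.5-fold lower, against 2.43%. The 1129 genes with the match of the Nons guide, AGAGTAA, had 0.08 against 0.03 in the same comparison, and the 1010 with that of the Smarca4.6 guide, TTATGCA, had 0.09 against 0.03.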

How the data were processed

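RNA-seq (TruSeq, paired-end, NextSeq500) was performed on 4 libraries. The authors trimmed the reads with trim_galore, aligned them with hisat2 (tophat is also named) to mm10 with positions that differ between FVB and CAST masked, and quantified genes in SeqMonk; the submitters' processing notes name bcl2fastq, HISAT2 and mm10. The strand setting is not given in the sources used here. The deposited values are log2 CPM, 1 column per library. All values of up to 1000 reads were whole multiples (within 0.05) of 1 read, with 0 reads given as 0.9, from which reads and totals were recovered.

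Differences were taken between the deposited log2 values, with exact 95% counting intervals from the reads. With 1 library per group no count test could be run. Genes named are Smarca4, the 12 largest rises and falls at a mean log2 CPM of at least 3, the 5 largest between 0 and 3, and, per list, up to 4 members with the largest difference whose interval excludes 0 and members past 1.5-fold; predicted genes and pseudogenes were skipped. Some genes that this rule takes in are not reported here. Other members named beside these were chosen after their values were seen. The lists, the genes compared and the alternatives were chosen with earlier results of these data known. Transcript length and GC content (longest transcript, 90.2% of genes), 3′ UTRs (85.2%), overlaps and hairpin sites came from GENCODE M21, and hairpin sequences from the study's supplementary list. The computations were tested on simulated reads. Alternatives were a stricter and no level filter, 1 CPM added before the log, subtraction of the autosomal median, time classes from Nons and other seed matches. Added later were comparison genes from the list's range of length, GC content and level, without gene-by-gene matching. Python 3.11.15, numpy 2.4.6, pandas 2.3.3, scipy 1.17.1 and matplotlib 3.10.9 were used.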

Additional observations from a re-analysis of the deposited data

Results flagged for a closer look

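The median of the 22 germline genes under DNA methylation had opposite signs with the 2 hairpins, 0.31 for Smarca4.4 minus Nons and -0.38 for Smarca4.6 minus Nons. With Smarca4.4, 1 of the 22 passed 1.5-fold, Sycp2, which was above Nons with both hairpins (0.79 and 0.46). Each hairpin has 1 library, both were compared with the same Nons library, and the difference between the hairpins was not tested. Medians of opposite sign were not confined to this list. Among others, they were 0.08 with Smarca4.4 and -0.24 with Smarca4.6 for YAP and TEAD targets. In the same order they were -0.06 and 0.26 for Wnt genes, and -0.06 and 0.21 for core and primed genes. With 1 library per group no library could be examined as an outlier within its group.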

How the results depend on the processing

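No paired analysis was possible because no group holds more than 1 library and all 4 carry the replicate number 3. No replicate could be left out for the same reason, so no difference could be separated from variation between cultures or preparations. The number of genes counted depended on the level filter. With a mean log2 CPM of at least 3, 99 genes were at least 1.5-fold higher in Smarca4.4 and 85 lower, and 11 and 2 at 2-fold. With no filter on level, where 0 reads stand as 0.9 of a read, these counts were 2176, 1565, 1282 and 883, and with 1 CPM added before the log they were 249, 156, 29 and 11. After subtraction of the autosomal median they stayed within 1.5 times.

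The autosomal median was 0.038 with no filter and 0 by construction after centring. The median of genes higher at day 6 was -0.039 with the stricter filter, -0.048 after centring and -0.083 with classes from Nons, and it changed sign to 0.0043 with no filter. That of genes lower at day 6 was 0.083 with no filter, 0.024 after centring and 0.148 with classes from Nons, and that of level genes was 0.0082 after centring. The Smarca4 difference was -0.83 after centring and -0.80 with 1 CPM added. Genes with a Smarca4.4 seed match exceeded those without by 0.054, and by 0.051 for an 8-base match. By 3′ UTR length the excess was 0.019 among the shortest, 0.0068 among the middle and 0.039 among the longest, which held 805 of the genes with a match. Of the other named genes, recomputed after centring and with 1 CPM added, 425 differences stayed within their counting interval, 21 moved beyond it, and none changed sign. Of the list medians 129 recomputed values stayed near the reported one and 3 moved. That of the sarcomere genes moved to 0.83 with the stricter filter, which left 1 gene. That of the ribosomal protein genes moved to -0.31 after centring. Relative to other genes it moved from -0.31 to -0.26 against genes in the list's range of length, GC content and level. This last comparison was chosen after seeing the data.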
